A study of Mus musculus with 18 samples.

Results

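The genes described here are 44 protein-coding cell cycle and DNA replication genes of the mouse, out of 23414 genes in the table. They were taken by gene symbol from a given list, and all 44 were found. Of these, 10 control the step from G1 into S phase, 15 carry out or license DNA replication, and 19 act in G2 phase and mitosis. All 44 had a value above 0 in at least 3 libraries and were tested, and 38 of them reached 1 in at least 3.

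RNA was measured by sequencing of stranded polyA libraries. The cells were CD8 T cells, sorted at the end of a culture of spleen cells. The mice were P14 transgenic, so that their CD8 T cells carry a receptor for the gp33 peptide of lymphocytic choriomeningitis virus, and all groups share this transgene. They were either wild type (WT) or labelled as a knockout (KO), restricted to CD8 T cells, of TrIP, the transmembrane regulator of PI3K that Pik3ip1 encodes. The driver of the deletion and the ages of the mice are not given in the sources used here. Every culture ran for 24 h with recombinant IL-2 at 50 U/ml and recombinant IL-12 at 2 ng/ml. Per genotype there were 3 libraries without peptide, 3 with gp33 at 100 ng/ml and 3 with gp33 plus 10 µM of IC87114, which inhibits the delta isoform of PI3K, giving 18 libraries in 6 groups. The labels do not say that the 3 libraries of a group came from separate mice, so p-values measure the spread between these libraries, which may be technical.

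A resting T cell sits outside the cycle and enters it after its antigen receptor is engaged. D-type cyclins with Cdk4 or Cdk6, then cyclin E with Cdk2, inactivate the RB proteins and release E2F factors, which turn on the genes of DNA replication. The MCM helicase is loaded at origins in G1, opens DNA in S phase, and is kept from reloading by geminin. Later the B-type cyclins with Cdk1, together with the Plk1 and Aurora kinases, drive mitosis, and the anaphase-promoting complex with Cdc20 and Ube2c ends it. Many genes of that last phase are held back by the DREAM complex at CHR elements of their promoters until the cell is about to divide.

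Values are the authors' normalized values, read as log2(value + 1) and turned back, and a log2 fold change is a difference of group means on the log2(value + 1) scale, which understates the change of genes with low values. Values of different genes are not compared. The total depth of a library is unknown. Each library had values above 0 for 18935 to 21214 genes. The mean correlation with the other libraries of the same group was 0.974 for replicate 2 of WT with inhibitor and 0.985 to 0.997 for the other 17 libraries. That library was above both others of its group in 30 of the 44 genes, replicate 2 of the gp33 group labelled KO was below both others in 35, and replicate 3 of the group labelled KO without peptide was below both in 35. Some of the 44 genes have a named copy as a separate row of the table. In replicate 2 of WT with inhibitor, Pcna-ps2, Tyms-ps, Ccnb1-ps and Ccnd3-ps were at 956.5, 373.5, 75.3 and 41.4. The other libraries of that group were at 1360 and 1315, 632 and 614, 129 and 127, and 106.5 and 107.9. Cks1brt was lower there as well, while Ccnb2-ps was higher, at 0.739 against 0.366 and 0.400. How reads were divided between genes and copies was not tested.

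Pik3ip1, which should be lost under the KO label, was at 31, 33.4 and 28.5 in the WT libraries without peptide and at 74.6, 74.9 and 78.9 in the libraries labelled KO. With gp33 it was at 0.863, 0.773 and 0.655 in WT and 1.53, 1.67 and 1.63 in the libraries labelled KO. With gp33 and inhibitor it was at 0.656, 0.616 and 0.624 in WT and 2.51, 2.58 and 2.18 in the libraries labelled KO. It was thus higher, not lower, under the KO label in each condition, so every direction between genotypes below is one between libraries as labelled. All 9 of the CD8 T cell markers looked at, Cd8a and Cd3e among them, were present in every library. Of 4 CD4 T cell markers, Cd4 stayed at or below 0.0848, while Cd40lg reached 1.34 in WT without peptide. The summed value of 9 myeloid and dendritic cell markers was 37.8 to 48.0 with gp33 in WT and 106 to 144 in the libraries labelled KO, and 48.4 to 64.9 and 59.4 to 92.4 with inhibitor. None of those 9 was at 0 throughout a group. Most of the sum came from Cst3, at 45.7, 37.6 and 43.7 in WT and 90.2, 139.7 and 106 under the KO label with gp33, while Csf1r did not exceed 0.0228 in either. Between genotypes with gp33, 8 of the 9 markers had a log2 fold change above 0 and 1 was called higher. The summed value of 10 B cell markers was 169 to 204 in WT and 77.0 to 132 in the libraries labelled KO without peptide, and 3.33 to 10.1 in all libraries with gp33. The 5 NK cell markers summed to 2.39 to 3.59 and 12.2 to 14.6 without peptide, with Ncr1 and Klra8 at 0 in all WT libraries. Without peptide the 5 plasma cell markers summed to 58.6 to 183 in WT and 54.9 to 229 under the KO label. Among them Jchain was uneven between libraries, at 127, 0.987 and 62.0 in WT and 2.41, 53.6 and 168 under the KO label. The part of these other cells in the results was not tested.

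Stimulation with gp33 raised nearly the whole set in both genotypes, replication and mitosis genes alike. In WT, 40 of the 44 genes rose and 2 fell, where 52.8% of all 23208 genes tested were called, 25.9% higher and 26.9% lower. Under the KO label 41 rose and 1 fell, where 49.3% were called, 27.9% higher and 21.4% lower. The median log2 fold change of the 44 was 1.85 in WT and 1.37 in the libraries labelled KO, and that of all genes was near 0 in both. By list the medians in WT were 1.09 for G1/S control, 1.94 for replication and 2.88 for G2/M and mitosis, and 0.77, 1.33 and 1.95 in the libraries labelled KO. A smaller share of cells in cycle and less RNA per cell cannot be told apart in these bulk samples. All 19 genes of G2/M and mitosis rose in both genotypes. The other genes of these pathways moved the same way, since 35 of 37 further replisome and S phase genes rose in either genotype, as did 39 of 42 further mitosis genes in WT and 37 of 42 in the libraries labelled KO.

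**Figure D1:**
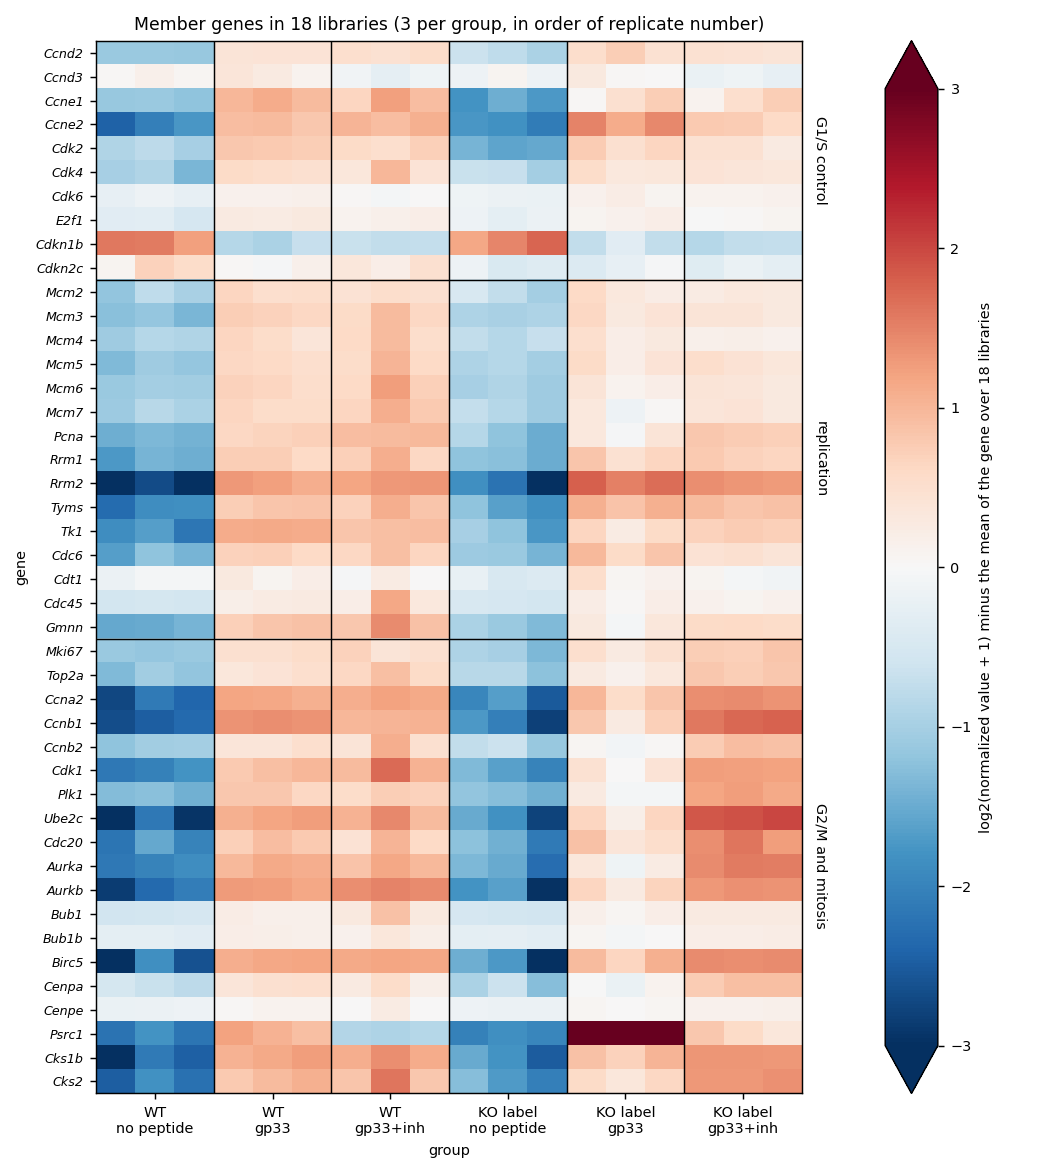
Heat map of log2(normalized value + 1) minus the mean of each gene over the 18 libraries, for the 44 genes (rows, in 3 lists) and the libraries (columns, 3 per group). Most rows turn from blue without peptide to red with gp33. Cdkn1b runs the other way and Psrc1 is darkest with gp33 in the libraries labelled KO, where it exceeds the colour scale.

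Among the regulators of G1, the D-type cyclin Ccnd2 was at 8.75, 8.74 and 8.45 without peptide and 26.5, 27 and 26.6 with gp33 in WT, and at 12.4, 11.4 and 9.90 without peptide and 29.1, 33.7 and 27.8 with gp33 in the libraries labelled KO. The stimulated libraries lay above all unstimulated ones in both genotypes (log2 fold change 1.52 and 1.35). Its relative Ccnd3 was not called in either, at 2.67, 3.03 and 2.77 without peptide and 3.62, 3.32 and 2.86 with gp33 in WT, and 2.25, 2.82 and 2.24 without peptide and 3.45, 2.73 and 2.62 with gp33 in the libraries labelled KO. A copy named Ccnd3-ps, a separate row of the table, was at 67.7, 70.3 and 76.35 without peptide and 165.8, 142.4 and 125.7 with gp33 in WT. Under the KO label the copy was at 61.2, 93.5 and 59.95 without peptide and 158.7, 123.3 and 116.1 with gp33. The value of Ccnd3 thus depends on how reads were divided between them. Both cyclin E genes were called in both genotypes. Ccne1 went from 1.84, 1.87 and 1.71 to 11.5, 12.5 and 11.1 in WT and from 0.813, 1.27 and 0.887 to 5.42, 7.73 and 9.42 in the libraries labelled KO (log2 fold change 2.18, SE 0.19, adjusted p = 3.04e-07 in WT). Ccne2 went from 0.378, 0.775 and 1.21 to 13, 13.2 and 11.9 in WT and from 1.19, 1.11 and 0.733 to 19.8, 15 and 19 in the libraries labelled KO, ratios of means of 16.1 and 17.7. In both cyclin E genes no stimulated library reached down to an unstimulated one.

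Cdk2, the kinase partner of cyclin E, was at 4.06, 4.47 and 3.77 without peptide and 15.5, 15.4 and 14.7 with gp33 in WT, and at 2.60, 2.14 and 2.24 without peptide and 15, 12.3 and 13.9 with gp33 in the libraries labelled KO. Cdk6, a partner of the D cyclins, had low values, with 0.0718, 0.138 and 0.0757 rising to 0.401, 0.394 and 0.412 in WT and 0.157, 0.120 and 0.115 to 0.383, 0.477 and 0.340 in the libraries labelled KO. E2f1, an activating E2F factor, went from 0.121, 0.134 and 0 to 0.705, 0.680 and 0.745 in WT and from 0.277, 0.162 and 0.252 to 0.505, 0.553 and 0.621 in the libraries labelled KO. All 3 of these genes rose in both genotypes, as did Cdk4 (1.63 and 1.19 on the log2 scale). Of the CDK inhibitors in the set, Cdkn1b, which encodes p27 and marks quiescent T cells, fell in both genotypes (log2 fold change -2.29, SE 0.14, and -2.06, SE 0.14), from a mean of 6.34 ± 0.976 to 0.497 ± 0.134 (SD, n = 3) in WT. Cdkn2c, which encodes the Cdk4 and Cdk6 inhibitor p18, was at 2.53, 4.43 and 3.89 without peptide and 2.45, 2.26 and 2.74 with gp33 in WT, where it fell by the test although its libraries overlap. That call was lost without 8 of the 18 single libraries and under 4 of 8 other settings, median-of-ratios scaling among them. In the libraries labelled KO it was at 2.04, 1.46 and 1.58 without peptide and 1.52, 1.84 and 2.30 with gp33 and was not called.

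All 15 replication genes were higher with gp33 in the libraries labelled KO, and 14 in WT, where the licensing factor Cdt1 was not called (log2 fold change 0.28, adjusted p = 0.0603). The helicase subunits Mcm2 to Mcm7 rose by log2 fold changes of 1.47 (Mcm4) to 1.94 (Mcm3) in WT. Mcm3 went from 1.22, 1.37 and 1.04 to 7.84, 7.55 and 7.07 in WT and from 1.77, 1.70 and 1.80 to 7.19, 5.49 and 6.04 in the libraries labelled KO. Mcm4 went from 2.69, 3.29 and 3.11 to 11.1, 10.4 and 9.02 in WT and from 3.61, 3.24 and 3.80 to 10.02, 7.90 and 8.50 under the KO label. Neither gene had a stimulated library at the level of an unstimulated one. Mcm6 was at 1.82, 2.03 and 1.96 without peptide and 8.88, 8.54 and 7.89 with gp33 in WT, and at 2.09, 2.28 and 1.91 without peptide and 7.05, 5.59 and 6.01 with gp33 in the libraries labelled KO. Mcm7 was at 3.04, 3.79 and 3.45 without peptide and 12.4, 11.6 and 11.6 with gp33 in WT, and at 4.19, 3.77 and 3.08 without peptide and 9.59, 6.74 and 7.85 with gp33 in the libraries labelled KO. For both, the stimulated libraries labelled KO lay above the unstimulated ones and below every stimulated WT library.

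Pcna, the sliding clamp of the replicative polymerases, went from 32, 34.9 and 33.1 to 140.1, 144 and 148 in WT and from 49.6, 38.8 and 31.6 to 114, 88.8 and 119 in the libraries labelled KO. A copy named Pcna-ps2 is a separate row of the table, with 1046, 1008 and 1006 in the stimulated WT libraries, so the value of Pcna depends on how reads were divided between them. Ccnd3, Tyms, Ccnb1, Ccnb2 and Cks1b have such a named copy too. Tk1, thymidine kinase of the nucleotide salvage pathway, went from 0.673, 0.944 and 0.342 to 12, 12.4 and 12 in WT and from 2.02, 1.64 and 0.796 to 8.53, 6.15 and 8.03 in the libraries labelled KO. Cdc6, which loads the helicase, went from 0.101, 0.518 and 0.317 to 4.61, 4.75 and 4.31 in WT and from 0.643, 0.620 and 0.321 to 5.79, 4.20 and 5.23 under the KO label. Both were raised in every stimulated library. Cdc45, a part of the active helicase, had low values of 0.0382, 0.0547 and 0.0388 without peptide and 0.699, 0.779 and 0.823 with gp33 in WT, and 0.0786, 0.0586 and 0.0373 without peptide and 0.763, 0.556 and 0.740 with gp33 in the libraries labelled KO. Gmnn, which encodes geminin, went from 1.79, 1.83 and 2.05 to 12.2, 13.3 and 13.8 in WT and from 3.17, 2.70 and 2.20 to 8.95, 6.78 and 9.16 in the libraries labelled KO. Of the nucleotide synthesis genes, the ribonucleotide reductase subunits Rrm1 and Rrm2 and the thymidylate synthase Tyms rose by 2.22, 4.30 and 2.81 in WT and by 1.97, 4.04 and 2.55 in the libraries labelled KO on the log2 scale. Rrm2 had the largest log2 fold change of the 15 in both genotypes, with group means of 5.41 ± 1.68 and 123 ± 9.45 (SD, n = 3) in WT.

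Most mitosis genes had low values without peptide beside their own values with gp33. Ccnb1, cyclin B1, was at 0.578, 0.796 and 0.997 without peptide and 24.4, 25.4 and 24.5 with gp33 in WT, and at 2.06, 1.43 and 0.431 without peptide and 16.6, 11 and 15.5 with gp33 in the libraries labelled KO. Its kinase Cdk1 was at 0.223, 0.345 and 0.563 without peptide and 8.39, 9.19 and 9.80 with gp33 in WT, and at 1.16, 0.753 and 0.357 without peptide and 6.43, 4.53 and 6.21 with gp33 in the libraries labelled KO. In both genes replicate 2 of the gp33 libraries labelled KO was the lowest of its group, and all 3 lay below the WT group. Plk1, polo-like kinase, was at 0.213, 0.253 and 0.101 without peptide and 4.27, 4.26 and 3.64 with gp33 in WT, and at 0.318, 0.226 and 0.0958 without peptide and 2.62, 1.87 and 1.88 with gp33 in the libraries labelled KO. Aurka, Aurora kinase A, was at 0.336, 0.458 and 0.617 without peptide and 10.5, 11.8 and 11.6 with gp33 in WT, and at 1.32, 1.08 and 0.201 without peptide and 6.43, 4.36 and 5.98 with gp33 under the KO label. The stimulated libraries labelled KO again sat between the unstimulated and the stimulated WT libraries. Ube2c, the ubiquitin-conjugating enzyme of the anaphase-promoting complex, was at 0.304, 1.32 and 0.343 without peptide and 20.5, 22.4 and 23.7 with gp33 in WT, and at 2.59, 1.92 and 0.507 without peptide and 15.2, 10.6 and 15.2 with gp33 in the libraries labelled KO.

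Top2a, which untangles sister chromatids, went from 0.0559, 0.278 and 0.153 to 2.35, 2.48 and 2.72 in WT and from 0.472, 0.488 and 0.122 to 2.17, 1.89 and 2.27 in the libraries labelled KO. Cenpa, the histone variant of centromeres, had the smallest ratio of stimulated to unstimulated means of the 19, 2.29 in WT and 1.99 under the KO label, with 9.14, 8.34 and 7.55 without peptide and 18, 19.6 and 19.8 with gp33 in WT, and 6.66, 8.47 and 5.10 without peptide and 13.6, 11.8 and 14.8 with gp33 in the libraries labelled KO. Bub1, a spindle checkpoint kinase, was low throughout, with 0.0118, 0.0298 and 0.0597 without peptide and 0.762, 0.678 and 0.667 with gp33 in WT, and 0.0639, 0.0267 and 0.0134 without peptide and 0.680, 0.555 and 0.722 with gp33 in the libraries labelled KO. All of them rose with gp33 in both genotypes. The proliferation marker Mki67 rose from a mean of 0.236 ± 0.0215 to 2.79 ± 0.117 (SD, n = 3) in WT, and from 0.275 ± 0.201 to 2.61 ± 0.309 in the libraries labelled KO. The remaining mitosis genes, which are Ccna2, Ccnb2, Cdc20, Aurkb, Bub1b, Birc5, Cenpe, Cks1b and Cks2, rose by 0.26 (Cenpe) to 3.72 (Cks1b) on the log2 scale in WT and by 0.21 (Cenpe) to 2.99 (Birc5) in the libraries labelled KO.

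Psrc1, a microtubule-associated protein of the spindle that is also known as a gene induced by p53, had a pattern of its own. It was at 0, 0.344 and 0.0127 in WT without peptide and at 9.67, 8.50 and 7.62 with gp33. In the libraries labelled KO it was at 0.138, 0.304 and 0.187 without peptide and at 37.4, 49.5 and 46.4 with gp33. All 3 gp33 libraries labelled KO lay above the highest of WT, the reverse of the other mitosis genes whose genotypes differed.

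The inhibitor was compared with gp33 alone to ask how the cell cycle genes depend on PI3K delta. In WT it moved 2 of the 44 genes, both down, whereas in the libraries labelled KO it moved 17, and 13 of the 14 that rose act in G2 or mitosis. Of all genes tested, 4.38% were called in WT, with 1.56% higher and 2.82% lower. Under the KO label 18.9% were called, with 4.17% higher and 14.8% lower. The 14 and 3 calls became 12 and 8 when libraries were scaled to the sum of protein-coding genes, and 17 and 1 with median-of-ratios scaling. Calls among all genes moved with these scalings as well, as given at the end. The median log2 fold change of the 19 mitosis genes was 0.01 in WT, or -0.03 without replicate 2 of WT with inhibitor, and 0.81 in the libraries labelled KO. Under those scalings it stayed at 0.70 and 1.05 in the latter. The myeloid marker sum given above was lower with inhibitor than without under the KO label. Cst3 was at 54.9, 52.8 and 52.3 with inhibitor, below all its values with gp33 under the KO label, while Lyz2 was at 3.97, 3.20 and 5.20 with gp33 and 8.52, 5.97 and 39.3 with inhibitor, and 5 of the 9 markers had a log2 fold change above 0. The part of either was not tested. For the 15 replication genes the median was 0.12 in WT, or -0.0024 without replicate 2 of WT with inhibitor, and -0.04 in the libraries labelled KO, or 0.16 with median-of-ratios scaling.

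In WT the genes that fell with inhibitor were Ccnd3 (log2 fold change -0.40, SE 0.10, adjusted p = 0.0278) and Psrc1 (log2 fold change -1.93, SE 0.14, adjusted p = 5.35e-06). Ccnd3 was at 2.35, 2.01 and 2.30 with inhibitor in WT and 2.15, 2.32 and 2.03 in the libraries labelled KO, below all gp33 libraries of its own genotype. Its copy Ccnd3-ps was at 106.5, 41.4 and 107.9 with inhibitor in WT and 97.6, 107.2 and 90.4 under the KO label. Ccnd3 lost its call in WT without replicate 2 or 3 of WT with inhibitor or replicate 1 or 2 of WT with gp33, each of which left 1 gene, Psrc1, and without replicate 2 of the gp33 libraries labelled KO there were 3. In the libraries labelled KO it fell as well (log2 fold change -0.31, adjusted p = 0.0373). Of the other G1/S genes, Ccnd2 was at 28.5, 27.6 and 29.6 with inhibitor in WT and 27.7, 27.1 and 26.2 in the libraries labelled KO, and Ccne1 at 8.87, 13.6 and 11 in WT and 5.74, 7.84 and 9.43 under the KO label. Neither was called. Ccne2 was at 14, 13.1 and 14.6 in WT and 11.7, 11.5 and 10.2 in the libraries labelled KO, where it fell (log2 fold change -0.63, SE 0.15, adjusted p = 0.00878), with all libraries below those with gp33 alone. It was not called in that comparison with median-of-ratios scaling or a pseudocount of 0.1.

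Cdk2 was at 13, 12.4 and 14.4 with inhibitor in WT and 11.9, 12 and 10.5 in the libraries labelled KO. Cdk6 was at 0.312, 0.212 and 0.289 in WT and 0.371, 0.367 and 0.380 under the KO label, and E2f1 at 0.523, 0.580 and 0.620 in WT and 0.404, 0.445 and 0.488 under the KO label. Cdkn2c was at 3.24, 2.88 and 3.71 in WT and 1.61, 1.95 and 1.74 in the libraries labelled KO. None of these 4 was called for the inhibitor in either genotype.

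Of the 15 replication genes, limma called Pcna in the libraries labelled KO for the inhibitor, and in WT it called 0, with 0 at an unadjusted p under 0.05. Mcm3 was at 6.87, 9.18 and 7.09 with inhibitor in WT and 5.94, 5.93 and 5.48 in the libraries labelled KO, Mcm4 at 10.6, 13.8 and 10.2 in WT and 7.57, 7.74 and 7.49 under the KO label, and Mcm6 at 8.26, 13.5 and 9.09 in WT and 6.96, 6.84 and 6.51 under the KO label. Mcm7 was at 12.3, 17.2 and 13.7 in WT and 9.96, 10.4 and 9.43 in the libraries labelled KO. Replicate 2 of WT with inhibitor was the highest of its group in all 4. Pcna was at 173, 176 and 178 in WT and 160.2, 153 and 149.8 in the libraries labelled KO, where it rose (log2 fold change 0.53, SE 0.13, adjusted p = 0.0111), and its copy Pcna-ps2 was at 869.6, 670.1 and 892 without and 1218, 1144 and 1125 with inhibitor. Tk1 was at 9.85, 10.4 and 10.4 in WT and 8.77, 9.28 and 8.93 under the KO label, Cdc6 at 4.39, 5.49 and 4.44 in WT and 3.69, 3.87 and 3.56 under the KO label, and Gmnn at 13.2, 20.6 and 13.7 in WT and 11.1, 11.3 and 10.8 under the KO label. None of these 3 was called for the inhibitor. Cdc45 was at 0.732, 2.38 and 0.874 in WT, so 1 library holds most of its group mean, and at 0.657, 0.609 and 0.641 in the libraries labelled KO.

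Some mitosis genes that rose with inhibitor in the libraries labelled KO had all their values there above those of every other library. These were Ccnb1, Plk1, Aurka, Ube2c, Cenpa, Mki67, Ccna2 and Cdc20. The same held for Birc5, which was not called, and the share of such genes among all genes was not counted. Ccnb1 was at 19.1, 19.2 and 19.6 with inhibitor in WT, below its 3 gp33 libraries but not called (log2 fold change -0.34), and at 28.8, 32.2 and 32.9 in the libraries labelled KO, above theirs (log2 fold change 1.09, SE 0.21, adjusted p = 0.00244, ratio of means 2.18). Its copy Ccnb1-ps was at 104, 69.8 and 100.5 with gp33 and 204, 226 and 222 with inhibitor. Cdk1 was at 9.58, 16.8 and 10.2 in WT and 12, 11.7 and 11.6 in the libraries labelled KO (log2 fold change 0.94, SE 0.20, adjusted p = 0.00415). Plk1 was at 3.38, 4.0 and 3.82 in WT and 5.76, 6.11 and 5.56 in the libraries labelled KO (log2 fold change 1.13, SE 0.10, adjusted p = 3.29e-06, ratio of means 2.73). With inhibitor, each Plk1 value under the KO label exceeded all 9 of the other values with gp33.

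Aurka was at 9.66, 12.1 and 10.6 with inhibitor in WT and 14.6, 16.4 and 16 in the libraries labelled KO (log2 fold change 1.35, SE 0.20, adjusted p = 2.71e-04). Ube2c was at 20.1, 26.9 and 18.9 in WT and 36.6, 37.5 and 40.6 under the KO label (log2 fold change 1.44, SE 0.29, adjusted p = 0.00281). For both genes the libraries with and without inhibitor were apart under the KO label and overlapped in WT. Top2a was at 3.08, 3.92 and 2.89 in WT and 3.62, 3.42 and 3.61 in the libraries labelled KO (log2 fold change 0.55, SE 0.11, adjusted p = 0.00368). Cenpa was at 16.9, 20.5 and 15.8 in WT and 24.2, 26.7 and 26.7 under the KO label (log2 fold change 0.90, SE 0.14, adjusted p = 4.53e-04). Bub1 was at 0.826, 1.75 and 0.841 in WT and 0.809, 0.813 and 0.818 under the KO label and was not called, with replicate 2 of WT again far above the others. The other risers in the libraries labelled KO were Mki67 (log2 fold change 0.34), Ccna2 (0.59), Ccnb2 (0.85), the anaphase activator Cdc20 (0.83), the checkpoint kinase Bub1b (0.20) and the Cdk subunit Cks2 (0.81). Aurkb, Bub1, Birc5, Cenpe and Cks1b were not called, with log2 fold changes of 0.09 (Cenpe) to 0.81 (Aurkb). Leaving out replicate 2 of the gp33 libraries labelled KO, the lowest of its group in most genes, left 9 mitosis genes higher and 1 lower. Without it Ccnd3, Pcna, Mki67, Ccna2, Cdc20 and Cks2 lost their calls, and the other 11 of the 17 genes kept theirs whichever single library was left out.

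**Figure D2:**
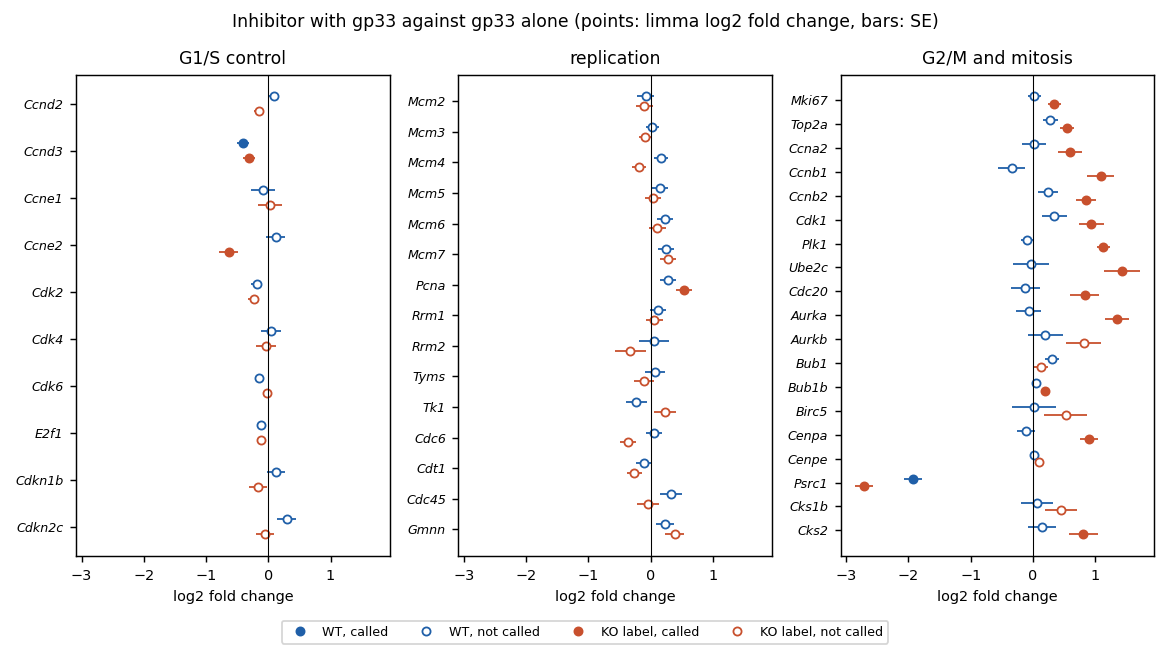
Limma log2 fold change of gp33 with inhibitor against gp33 alone for each of the 44 genes, with its SE as a bar, in WT (blue) and in the libraries labelled KO (orange). Filled points were called at an adjusted p under 0.05. In the G2/M and mitosis panel the orange points lie to the right of the blue ones for 17 of 19 genes, and Psrc1 lies far to the left in both.

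Psrc1 fell in both genotypes. It was at 1.52, 1.44 and 1.57 in WT with inhibitor and at 7.06, 5.85 and 4.86 in the libraries labelled KO (log2 fold change -2.72, SE 0.14, adjusted p = 2.67e-08). These values were below every gp33 library of the same genotype, and above every library without peptide.

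Promoter sequences are shown for genes that rose with inhibitor in the libraries labelled KO, for Psrc1, which fell, and for a pair of replication genes. They come from RefSeq, GRCm38.p6, which holds 42 promoters of 38 of the 44 genes, each from 250 bases before to 50 bases after a start, and the printed stretch is the 150 bases before the start. Capitals mark CCAAT, the CHR letters TTTGAA or TTTAAA, and the E2F letters TTTGGCGC, TTTCCCGC, TTTGGCGG or TTTCCCGG, on either strand, so that the reverse complement is also in capitals. None of the letters of one kind of motif is contained in another kind.
Ccnb1, chr13:100786487-100786636, minus strand: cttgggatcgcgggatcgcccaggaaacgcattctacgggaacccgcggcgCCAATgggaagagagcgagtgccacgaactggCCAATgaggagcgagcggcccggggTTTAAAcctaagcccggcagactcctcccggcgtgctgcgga
Plk1, chr7:122159285-122159434, plus strand: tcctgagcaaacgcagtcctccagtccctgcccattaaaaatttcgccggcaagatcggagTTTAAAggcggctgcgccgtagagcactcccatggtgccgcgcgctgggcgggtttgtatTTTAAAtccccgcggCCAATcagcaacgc
Ube2c, chr2:164769779-164769928, plus strand: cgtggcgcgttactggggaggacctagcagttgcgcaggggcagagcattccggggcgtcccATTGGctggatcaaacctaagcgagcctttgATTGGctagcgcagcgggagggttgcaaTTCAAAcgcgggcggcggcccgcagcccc
Cenpa, chr5:30666736-30666885, plus strand: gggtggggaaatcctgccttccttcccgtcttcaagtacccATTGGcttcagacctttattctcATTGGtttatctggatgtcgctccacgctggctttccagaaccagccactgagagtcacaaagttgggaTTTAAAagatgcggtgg
Psrc1, chr3:108383654-108383803, plus strand: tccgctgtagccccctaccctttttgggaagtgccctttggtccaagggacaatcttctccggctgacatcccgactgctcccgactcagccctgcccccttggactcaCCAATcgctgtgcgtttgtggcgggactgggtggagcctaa
Mcm6, chr1:128359706-128359855, minus strand: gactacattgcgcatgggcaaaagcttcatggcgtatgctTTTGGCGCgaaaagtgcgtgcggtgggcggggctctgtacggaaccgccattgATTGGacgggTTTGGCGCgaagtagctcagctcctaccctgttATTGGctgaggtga
Cdc6, chr11:98908001-98908150, plus strand: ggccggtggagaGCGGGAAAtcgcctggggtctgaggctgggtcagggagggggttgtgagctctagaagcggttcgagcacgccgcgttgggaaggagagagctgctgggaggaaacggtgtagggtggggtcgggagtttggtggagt

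Of the 17 mitosis genes with a promoter, 14 (82.4%) held the CHR letters and 16 (94.1%) held CCAAT within the 300 bases, and 13 (76.5%) held both. Of the 27025 genes in the whole reference, 30.6% held CHR, 41.1% CCAAT and 12.2% both. The E2F letters were in 2 of those 17 genes, in 6 of 13 replication genes (46.2%), in 1 of 8 G1/S genes and in 3.79% of all genes. The CHR letters were in 5 of the 13 replication genes. The CHR letters were not found in this window of Psrc1, Bub1 or Cks2, of which Cks2 rose with inhibitor under the KO label. In Psrc1 the E2F letters lie at or after the start, outside the printed stretch. The CHR letters can be read in Ccnb1, Plk1, Ube2c and Cenpa. These matches describe the letters of the window, and no binding was measured.

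The comparison of genotypes asks what differs in cells labelled as lacking TrIP. With gp33 the libraries labelled KO had lower values of 10 of the 44 genes and higher values of 1, Psrc1, while 16.2% of all genes were called, 11.7% higher and 4.53% lower. With median-of-ratios scaling 19 of the 44 were lower and 1 higher, and the share of all calls that were higher went from 72.1% to 43.3%. With inhibitor 2 genes were higher and 2 lower, where 2.3% of all genes were called (0.987% higher and 1.31% lower). Without peptide 3 were higher and 2 lower, where 11% of all genes were called (4.82% higher and 6.14% lower). The count without peptide is thus near the share of all genes and is not particular to this set. The genes lower with gp33 were Ccne1 of the G1/S list, Mcm7, Pcna, Tk1 and Gmnn of the replication list, and Ccnb1, Plk1, Aurka, Bub1b and Cenpa of the mitosis list. The median log2 fold changes with gp33 were -0.12 for G1/S control, -0.18 for replication and -0.35 for mitosis, and 0.01 for all genes. The group with gp33 under the KO label is shared with the inhibitor comparison above, so a low value there would appear in both.

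Aurka had the largest deficit, with a mean of 5.59 ± 1.09 under the KO label and 11.3 ± 0.706 in WT (SD, n = 3). Its log2 fold change was -0.91 (SE 0.20, adjusted p = 0.00575). Plk1 had means of 2.12 ± 0.433 and 4.06 ± 0.365 (log2 fold change -0.70, adjusted p = 2.70e-04), and Ccnb1 of 14.3 ± 2.95 and 24.8 ± 0.532 (log2 fold change -0.77, adjusted p = 0.0252). Of the others called, Tk1 differed by -0.63, Gmnn by -0.61, Ccne1 by -0.60, Mcm7 by -0.52, Cenpa by -0.49, Pcna by -0.43 and Bub1b by -0.16 on the log2 scale. The gp33 libraries labelled KO lay below all WT ones in each of these, which adds little to calls made from the same libraries. In the mitosis list 14 of the 19 genes lay so, called or not, and the share among all genes was not counted. Psrc1 was higher by 2.24 (SE 0.14, adjusted p = 1.71e-07), a ratio of means of 5.17. Without replicate 2 of the gp33 libraries labelled KO the 11 calls became 4, and without any 1 WT library with gp33 they became 4 or 5. Plk1, Aurka and Psrc1 held their calls whichever single library was left out. The myeloid marker sum given above, higher under the KO label in these same gp33 libraries, moved with this difference, and its part was not tested.

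With inhibitor, Plk1 (log2 fold change 0.53, SE 0.10, adjusted p = 0.0128) and Psrc1 (log2 fold change 1.45, SE 0.14, adjusted p = 9.28e-05) were higher in the libraries labelled KO, and Cdkn2c (log2 fold change -0.63, SE 0.15, adjusted p = 0.0428) and Mcm4 (log2 fold change -0.53, SE 0.11, adjusted p = 0.0234) were lower. Replicate 2 of WT with inhibitor bears on this comparison, since without it Plk1, Cenpa, Cenpe and Psrc1 were higher and none was lower. In that fit 2.03% of all genes were called, 0.758% higher and 1.27% lower. Without replicate 1, 2 or 3 of the libraries labelled KO with inhibitor 2, 1 and 2 genes were called, and Psrc1 kept its call throughout. Without peptide, Ccnd2, E2f1 and Tk1 were higher and Cdk2 and Cdkn2c lower in the libraries labelled KO (log2 fold changes 0.34, 0.18, 0.57, -0.62 and -0.76). In these same libraries the myeloid marker sum was 62.0 to 86.2 in WT and 133 to 212 under the KO label, with 4 of the 9 markers called higher. The 5 erythroid markers found summed to 0.224 to 0.626 and 3.52 to 10.3, with 3 called higher. The part of these cells, and of the B and NK cells given above, was not tested. The 5 calls became 14 without replicate 3 of the unstimulated libraries labelled KO, the lowest of its group in 35 of the 44 genes. They became 2 without replicate 1 of that group, and 3 without replicate 3 of WT without peptide or with inhibitor, or without any 1 library of WT with gp33 or of those labelled KO with inhibitor. Cdk2 and Cdkn2c kept their calls in each case. All 5 calls were lost in a fit of only the libraries compared. None of the 19 mitosis genes was called between genotypes without peptide by limma, and 3 had an unadjusted p under 0.05.

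**Figure D3:**
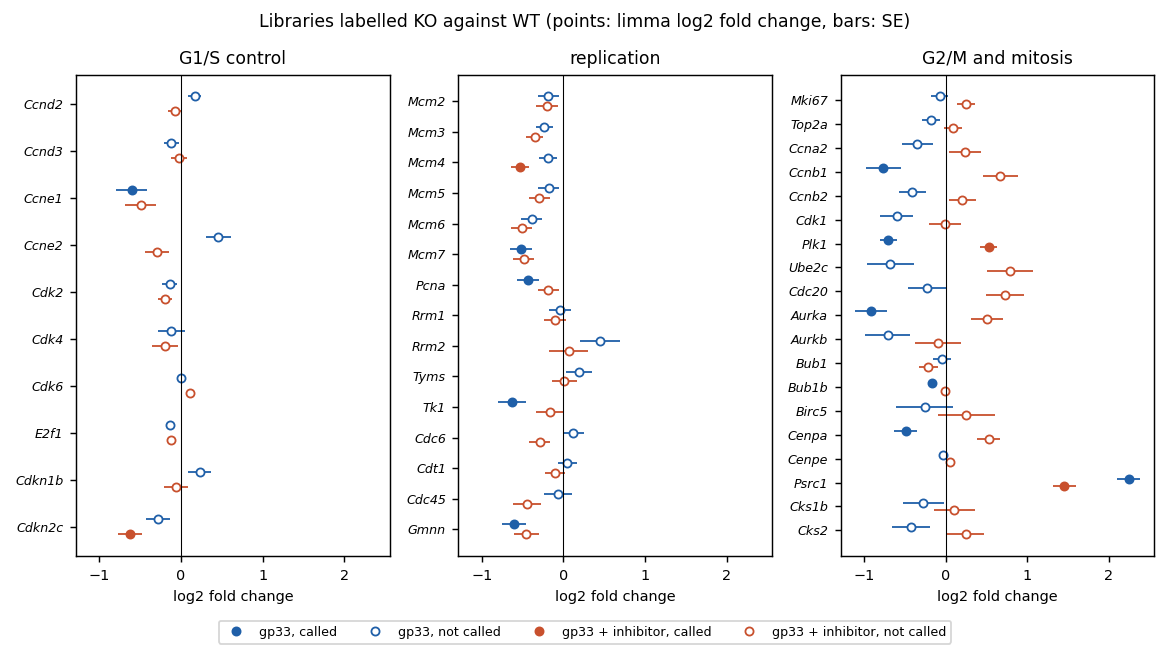
Limma log2 fold change of the libraries labelled KO against WT for each of the 44 genes, with its SE as a bar, with gp33 (blue) and with gp33 and inhibitor (orange). Filled points were called at an adjusted p under 0.05. In the mitosis panel most blue points lie left of zero and most orange points right of it, and Psrc1 lies right in both.

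The difference between genotypes in each response was tested directly. For the response to gp33, 11 genes rose less in the libraries labelled KO and 2, Cdk2 and Psrc1, rose more, where 17.8% of all genes were called, 5.34% lower and 12.5% higher. Those that rose less were E2f1 of the G1/S list, Mcm3, Mcm7, Pcna, Tk1 and Gmnn of the replication list, and Ccnb1, Cdk1, Plk1, Ube2c and Aurka of the mitosis list. The differences of log2 fold change were -1.33 for Ube2c, -1.21 for Aurka, -1.20 for Tk1 and -0.96 for Gmnn, and 2.11 for Psrc1. The count depends on single libraries, with 21 genes without replicate 3 of the unstimulated libraries labelled KO and 8 without replicate 3 of WT with gp33 or replicate 2 of the gp33 libraries labelled KO. Cdk2, E2f1, Mcm3, Tk1, Gmnn, Plk1, Aurka and Psrc1 kept their calls whichever single library was left out. Cdk2, E2f1 and Tk1 already differed between genotypes without peptide (log2 fold changes -0.62, 0.18 and 0.57), and that enters their difference in response. Cdk2 started lower under the KO label and was not called between genotypes with gp33. Markers of other cells also differed between the unstimulated groups, and their part was not tested. With median-of-ratios scaling 1 rose more and 23 less, but the share of all genes called under it is not given here. That count is thus not read as particular to these genes.

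For the inhibitor, 5 genes had a response that was higher in the libraries labelled KO and 1, Psrc1, lower, where 6.22% of all genes were called, 1.49% higher and 4.74% lower. The 5 were Ccnb1 (difference 1.43, SE 0.30, adjusted p = 0.0117), Plk1 (difference 1.23, SE 0.14, adjusted p = 1.48e-04), Ube2c (difference 1.47, SE 0.41, adjusted p = 0.0493), Aurka (difference 1.42, SE 0.28, adjusted p = 0.00794) and Cenpa (difference 1.01, SE 0.20, adjusted p = 0.00767), all of the mitosis list, while none of the G1/S and replication genes was called by limma and 2 and 1 of them had an unadjusted p under 0.05. Ube2c lost its call without most of the single libraries, and the other 4 held theirs whichever library was left out. Psrc1 lost its call without 8 of the 18 single libraries, with a pseudocount of 0.1, with median-of-ratios scaling and with a block by library letter. Without replicate 2 of WT with inhibitor there were 10 calls, 9 higher and 1 lower, with Ccnb2, Cdk1, Bub1b and Cenpe added. In that fit 7.43% of all genes were called, 2.17% higher and 5.27% lower. The scalings gave 7 higher and 0 lower, or 5 and 2, and the shares of all genes called under them are not given here.

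**Figure D4:**
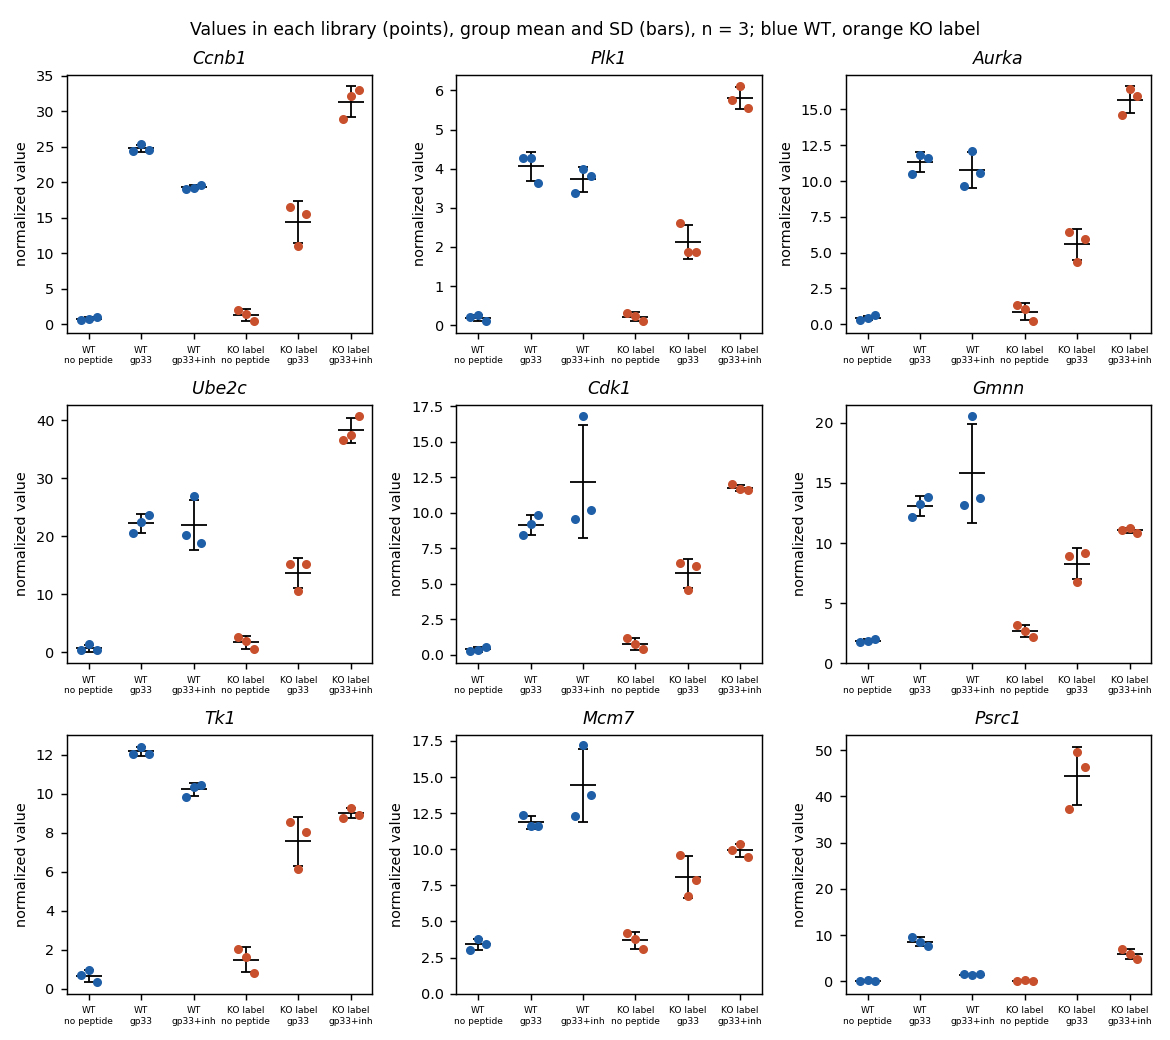
Normalized values of 9 genes in each library (points, 3 per group) with group means and SDs (bars), WT in blue and the libraries labelled KO in orange. Plk1, Ccnb1, Aurka and Ube2c are lowest of the gp33 groups under the KO label without inhibitor and highest with it, while Psrc1 is highest under the KO label with gp33.

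The neighbouring genes of the cycle give the setting of these changes. Of 42 further mitosis genes, 20 rose and 1 fell with inhibitor in the libraries labelled KO (median log2 fold change 0.27), beside 4.17% and 14.8% of all genes, with Hmgb2 (log2 fold change 1.25, SE 0.17, adjusted p = 1.16e-04), Kif2c (0.38) and Prc1 (0.76) among the rises of smallest p. In WT their median was 0.09, or 0.0038 without replicate 2 of WT with inhibitor. Of 37 further replisome and S phase genes, 3 rose and 1 fell under the KO label. Among 25 genes of the RB, E2F and CDK inhibitor list, 9 were higher and 0 lower with gp33 under the KO label, where 11.7% and 4.53% of all genes were. With inhibitor 9 of them fell and 1 rose under the KO label, and 2 fell and 0 rose in WT. Among 11 antiproliferative and quiescence genes, 6 were higher and 0 lower with gp33 under the KO label, against the same shares of all genes. With inhibitor 6 of those 11 fell and 0 rose under the KO label, and 1 fell and 2 rose in WT, where 2.82% and 1.56% of all genes did. Among 14 checkpoint and repair genes, 1 was higher and 0 lower with gp33 under the KO label, against the same shares of all genes. With inhibitor 0 of those 14 rose and 3 fell under the KO label, and 0 rose and 2 fell in WT. These counts moved with the scaling, and so did the calls among all genes, as given at the end. Median-of-ratios scaling gave 34 rises and 0 falls with inhibitor under the KO label among the further mitosis genes. Among the replisome genes it gave 8 and 0. In the RB, E2F and CDK inhibitor list and among the antiproliferative genes it gave 2 rises and 5 falls each, and in the checkpoint list 2 and 2. Between genotypes with gp33 it gave 7 higher and 1 lower in the RB, E2F and CDK inhibitor list, and 4 higher and 0 lower among the antiproliferative genes. With protein-coding scaling the replisome genes had 1 rise and 3 falls.

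Cdkn1a, which encodes the CDK inhibitor p21, had the smallest p of the RB, E2F and CDK inhibitor list in both comparisons. It was at 32.9, 28 and 29.5 with gp33 and 7.91, 7.13 and 7.42 with inhibitor in WT, and at 159, 202 and 197 with gp33 and 16.4, 12.2 and 9.85 with inhibitor in the libraries labelled KO. Its values were higher under the KO label with gp33 (log2 fold change 2.58, SE 0.15, adjusted p = 8.79e-08) and fell with inhibitor in both genotypes (-1.87 and -3.78). Mdm2, of the checkpoint and repair list, restrains p53. With gp33 it was at 5.13, 4.18 and 3.58 in WT and 21.7, 33.8 and 27.1 under the KO label. With inhibitor it was at 2.89, 2.08 and 2.79 in WT and 3.81, 3.22 and 3.27 under the KO label. Ccng1, a cyclin induced by p53, was at 31.7, 28.4 and 27.3 in WT and 98.3, 141 and 117 under the KO label with gp33, and at 13.8, 13.5 and 13.8 in WT and 27.8, 21.4 and 23.5 under the KO label with inhibitor. In all 3 genes every gp33 library labelled KO stood above every other library. Psrc1 was highest in those libraries too, and the mitosis genes Ccnb1, Plk1, Aurka and Ube2c had their lowest stimulated values in the same libraries. In WT, where Cdkn1a also fell with inhibitor, the median log2 fold change of the 19 mitosis genes was 0.01. H2ax, of the checkpoint and repair list, fell with inhibitor in both genotypes (log2 fold change -1.29 in WT and -1.22 under the KO label). Cdkn2b, of the RB, E2F and CDK inhibitor list, fell under the KO label (-1.26) and was not called in WT (0.18). Whether any of these genes bears on the others was not tested.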

How the data were processed

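The deposited table holds 1 value per gene and library for 23414 genes in 18 libraries, normalized by the authors in Partek according to its name. Its values behave as log2 of a value plus 1, but the log base, the offset and the method are not given in the sources used here, so log2 was assumed, and the authors' counts and depth are unknown. GRCm38 and GRCm39 both stand in the submitters' processing notes, with no role given, so no coordinates were taken from the table. Libraries were grouped by title and treatment field, since the protocol text describes gp33 for all of them.

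Genes with a value above 0 in at least 3 libraries (23208) were fitted together in R 4.3.3 (limma 3.58.1, statmod 1.5.0) on log2(value + 1) with a mean per group, 12 residual degrees of freedom and trended, robust moderation. A gene was called at a 2-sided Benjamini-Hochberg adjusted p under 0.05 over all genes tested, in 9 contrasts. Leave-one-out fits, other filters, pseudocounts and scalings, the smaller fits and the replicate blocks were alternatives. The fit was tested on simulated data. Promoters were searched in RefSeq, GRCm38.p6.

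The members and lists were chosen with earlier results of these data known. All 44 genes are named. Values in every library are given for the 3 of largest absolute moderated t in each list for each genotype contrast with gp33 and each inhibitor contrast, and for genes called in an interaction or without peptide. Outside the set, Pik3ip1 and up to 3 genes of smallest p per list were eligible. Cst3, Csf1r, Lyz2, Cd40lg and Jchain were chosen after their values were seen. Replicate numbers were not used as pairs. They are the labels' own, and the same number across genotypes had correlations of deviations of -0.37 to 0.08.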

Additional observations from a re-analysis of the deposited data

Results flagged for a closer look

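The 13 genes whose response to gp33 differed between the libraries labelled KO and WT, and the 6 whose response to the inhibitor did, were singled out because the difference itself was tested, as an interaction in the limma model adjusted over all 23208 genes. For gp33 the differences of log2 fold change were 0.48 for Cdk2 and 2.11 for Psrc1, which rose more under the KO label, and -0.32 for E2f1, -0.56 for Mcm3, -0.59 for Mcm7, -0.67 for Pcna, -1.20 for Tk1, -0.96 for Gmnn, -1.07 for Ccnb1, -0.93 for Cdk1, -0.73 for Plk1, -1.33 for Ube2c and -1.21 for Aurka, which rose less. For the inhibitor they were 1.43 for Ccnb1, 1.23 for Plk1, 1.47 for Ube2c, 1.42 for Aurka and 1.01 for Cenpa, and -0.79 for Psrc1. The last of these calls, for Psrc1, was lost without 8 of the 18 single libraries and with median-of-ratios scaling, and that for Ube2c was lost without most of the single libraries. Of the genes flagged for gp33, Cdk2, E2f1 and Tk1 were also called between genotypes without peptide, which enters their difference.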

How the results depend on the processing

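No called gene changed direction under any alternative run. With a filter at 5 in 3 libraries, 3 genes differed between genotypes without peptide and 1 responded to the inhibitor in WT. A pseudocount of 0.1 gave 7 genes between genotypes with gp33, 11 for the inhibitor in the libraries labelled KO, 8 for the difference in the gp33 response and 2 for the difference in the inhibitor response. Median-of-ratios scaling gave 20 between genotypes with gp33 and 24 for the difference in the gp33 response. Fits of only the libraries compared gave 1 with inhibitor, 17 with gp33 and 0 without peptide between genotypes (limma, adjusted), 1 for the inhibitor in WT and 11 for the difference in the inhibitor response. The replicate block, added for 3 libraries a group, gave 3 between genotypes without peptide and moved no other count by over 1.5 times, and the block by library letter gave 1 for the inhibitor in WT. Within a genotype the number and the library letter go together, and 4 of 18 such pairs had a correlation of deviations over 0.1. Across genotypes 0 of 27 pairs with the same number did, so the numbers were not read as pairs there. The main fit used neither as a pairing. The cause of these changes was not tested.

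Leaving out each library in turn gave 41 to 43 genes for gp33 in WT and 42 to 43 in the libraries labelled KO, 1 to 3 for the inhibitor in WT and 12 to 21 in the libraries labelled KO, 2 to 14 between genotypes without peptide, 4 to 14 with gp33 and 1 to 5 with inhibitor, 8 to 21 for the difference in the gp33 response and 4 to 10 for that in the inhibitor response. For most of these fits the share of all genes called is not given here. Of all genes called, 72.1% were higher under the KO label with gp33, 43.3% with median-of-ratios and 82.1% with protein-coding scaling, and for the inhibitor in the libraries labelled KO 22%, 54.8% and 9.19%. The unknown depth limits what can be said of genes below 1.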
